A study of Mus musculus with 9 samples.

Results

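The comparison described here is the response to retinoic acid (RA) in the control transfectant of the series, RF8 mouse embryonic stem (ES) cells that carried enhanced green fluorescent protein (EGFP) in place of a Nanog construct. The EGFP RA library came from EGFP cells grown without leukaemia inhibitory factor (LIF) and with 5 µM RA, and the EGFP no-LIF library from EGFP cells grown without LIF and without RA. These are 2 of 9 libraries, and per the labels they differ by RA alone, since neither culture held LIF, the cytokine that sustains self-renewal of mouse ES cells. The other 7 libraries are EGFP cells with 1000 units of LIF per ml (EGFP LIF) and the transfectants with wild-type Nanog (WT) and with Nanog carrying the L122A change (L122A), each with RA, without LIF and with LIF. The table names its LIF columns differently from the labels, so the EGFP LIF values below rest on an assignment by elimination. All cells were kept in serum and puromycin, per the labels, which give neither the time in culture nor whether a transfectant was a clone or a pool. Genes were taken where the higher of the EGFP RA and EGFP no-LIF libraries held at least 5 CPM, a read count made relative to the library total and to a trimmed-mean (TMM) scaling factor. This chose 10645 of the 33495 genes in the file. There was 1 library a side, so no gene was tested between them, and the 95% Poisson intervals given below cover counting error only.

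RA is made from vitamin A by retinol and retinaldehyde dehydrogenases, carried in the cytoplasm by small binding proteins and broken down by cytochromes of the Cyp26 family. It is the ligand of nuclear receptors (Rara, Rarb, Rarg) that bind DNA with retinoid X receptors (Rxra, Rxrb, Rxrg), and target genes are held by corepressors without ligand and raised by coactivators with it. In ES cells RA is a standard inducer of differentiation, and Hox genes and the genes of RA breakdown are textbook targets.

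Of the 10645 genes, 2381 (22.4%) were at least 2-fold higher in the EGFP RA library and 1685 (15.8%) at least 2-fold lower, on the log2 ratio of CPM with a prior count of 2, while 6579 lay within 2-fold. The median log2 ratio was 0.07. At 10-fold or more 315 genes were higher and 175 lower, and at 100-fold or more 20 were higher and 24 lower. The whole interval lay beyond 2-fold for 1993 of the higher and 1356 of the lower genes. Scaling by total counts in place of TMM factors moved the median to 0.29 and the split to 2944 higher and 1238 lower, which is 70.4% higher calls against 58.6% with TMM factors. A gene that reached 5 CPM in 1 of the libraries alone had to be higher in that library, though not necessarily by 2-fold. Such genes numbered 1207 for the RA library and 701 for the no-LIF library, and 8737 reached 5 CPM in both. In whole cultures, fewer cells of a type and less RNA per cell cannot be told apart.

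The libraries held 28714988 (EGFP RA) and 26922401 (EGFP no-LIF) gene counts. The share of ribosomal RNA genes was 16.7% in the RA library and 15.0% in the no-LIF library, that of mitochondrial genes 12.6% in the RA library and 5.87% in the no-LIF library. These shares overlap, since mitochondrial ribosomal RNA is counted in both. It held 12.02% of counts in the RA library and 5.65% in the no-LIF library. A small-subunit ribosomal RNA model (SSU_rRNA_5) went the other way, with 4.72% in the RA library and 9.38% in the no-LIF library. Nanog, the gene that the other constructs carry, had 0.870 CPM in EGFP RA, 290.4 in EGFP no-LIF and 384 in EGFP LIF. The RA library is labelled ES cells like the others, and the defining ES cell markers Nanog and Pou5f1 were below 1 CPM in it. The EGFP no-LIF library stood apart from the WT and L122A no-LIF libraries in genes of the primitive streak, the site where mesoderm forms in the embryo, and of smooth muscle. T (brachyury), which marks the streak, had 105 CPM there, against 0.163 in WT no-LIF, 0 counts in L122A no-LIF and 6.72 CPM in EGFP LIF. Acta2, smooth muscle actin, had 244 CPM in EGFP no-LIF, against 2.41 in WT no-LIF and 1.21 in L122A no-LIF. Summed levels of other lists stood apart there too. Fibroblast and matrix genes had 1140 CPM in EGFP no-LIF, against 107 in WT no-LIF and 60.1 in L122A no-LIF. Most of that sum in EGFP no-LIF was of the smooth muscle genes Acta2 and Tagln. Extraembryonic endoderm effectors had 1483 CPM in EGFP no-LIF, against 375 in WT no-LIF and 329 in L122A no-LIF. Trophectoderm genes had 727 CPM in EGFP no-LIF, against 53.03 in WT no-LIF and 26.5 in L122A no-LIF, and neural progenitor genes 81.0, against 12.1 and 18.1. Most of the neural progenitor sum in EGFP no-LIF was Nes (nestin), which mesenchyme also makes. EGFP LIF values stand beside several of the results on these genes.

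**Figure D1:**
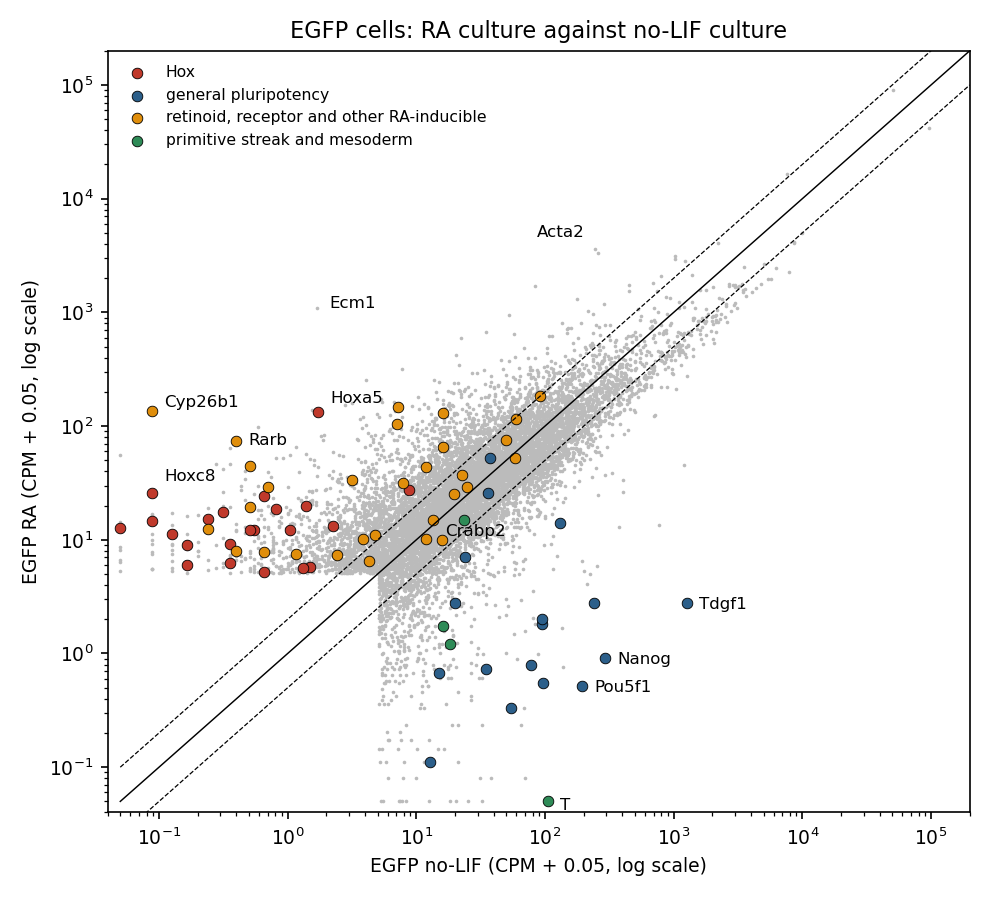
CPM plus 0.05 in EGFP RA (vertical axis, log scale) against CPM plus 0.05 in EGFP no-LIF (horizontal axis, log scale) for the 10645 genes, each a grey point, with members of 4 groups of gene lists in colour. The solid line marks equal CPM and the dashed lines 2-fold. Hox genes (red) and Cyp26b1 and Rarb (orange) lie far above the lines, and Tdgf1, Pou5f1 and Nanog (blue) and T (green) far below.

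The genes with the largest increase were led by Cyp26b1, an RA-degrading cytochrome (chr6:84521937-84543740 in mm9, the build of all gene positions given here). It had 135 CPM in EGFP RA and 0.0381 CPM, a single count, in EGFP no-LIF, a ratio of 3536 with an interval of 634 to 139713. Pgm5, a phosphoglucomutase relative of muscle adhesion sites, had 55.5 CPM in RA and 0 counts in no-LIF, and was at least 485-fold higher against a floor of 3 counts in the no-LIF library. Ecm1, a secreted matrix glycoprotein, had 1089 CPM in RA and 1.64 CPM in no-LIF (664-fold higher, 493 to 918), where brackets here and below give the ratio of CPM and its 95% Poisson interval. It was the most abundant of these genes in the RA library. Foxc2, a forkhead factor of mesenchyme, had 14.4 CPM in RA and 0 counts in no-LIF and was at least 125-fold higher. Synpo, an actin-binding protein, had 64.3 CPM in RA and 0.305 in no-LIF (211-fold higher, 107 to 489). Crispld2, a secreted protein of mesenchyme, had 97.8 CPM in RA and 0.534 in no-LIF (183-fold higher, 109 to 335). Svep1, a large extracellular adhesion protein, had 46.3 CPM in RA and 0.229 in no-LIF (202-fold higher, 92.6 to 552). Duox2, a dual oxidase that makes hydrogen peroxide, had 16.97 CPM in RA and a single count in no-LIF. Its neighbours Duoxa1 and Duoxa2, the maturation factors of dual oxidases, which were named after their values were seen, had 16.4 and 14.4 CPM in RA, against 0.153 and 0.0381 CPM in no-LIF. The 12 genes of this group also held Hoxc8, Hoxb6, the antisense RNA Hoxb5os and Rarb. The file lists Usp10 with a span of several megabases on chromosome 8 that covers Foxc2 and Crispld2, and how reads there were assigned is not stated in the labels.

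The largest decrease was that of T (chr17:8627287-8635361), with 0 counts in EGFP RA and 105 CPM in EGFP no-LIF, at least 1131-fold lower. Against EGFP LIF, where it had 6.72 CPM, the gene was likewise at 0 in RA. Lefty2, a secreted Nodal antagonist, had a single count in RA and 70.1 CPM in no-LIF, and Otx2, a homeodomain factor of the epiblast and forebrain, a single count in RA and 31.4 CPM in no-LIF. Tdgf1 (Cripto, the Nodal co-receptor) was the most abundant gene of the group, with 2.74 CPM in RA and 1268 in no-LIF (464-fold lower, 376 to 578). Pou5f1 (Oct4; chr17:35643006-35647714), the homeodomain factor required for pluripotency, had 0.466 CPM in RA and 195 in no-LIF (418-fold lower, 253 to 747). Nanog (chr6:122657506-122664651) was 334-fold lower, 231 to 502. Fgf17 and Fgf8, fibroblast growth factors, had 0 counts in RA and 25.2 and 20.1 CPM in no-LIF. They were at least 270.4-fold and 216-fold lower, and in EGFP LIF had 23.4 and 0.435 CPM. Kcnj3, a potassium channel subunit, had a single count in RA and 38.3 CPM in no-LIF. Alox15, a lipoxygenase, had 0 counts in RA and 18.2 CPM in no-LIF (at least 196-fold lower), and Fgfbp1, an FGF carrier, 0.280 CPM in RA and 68.3 in no-LIF. Mup6 had 0 counts in RA and 32.3 CPM in no-LIF, but it belongs to a family of near-identical urinary protein genes, so its reads may come from other members.

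Some of these targets are known to be bound by RA receptors through a direct repeat of the core letters GTTCA or GGTCA. In the RefSeq windows of mouse promoters (GRCm38.p6, 250 bases before to 50 after a gene's start) the repeat was searched on both strands as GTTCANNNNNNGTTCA, GGTCANNNNNNGGTCA, GTTCANNNNNNGGTCA and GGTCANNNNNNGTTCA, the spacing known as DR5. It was found in 81 of 32851 windows (0.247%). Of the 54 genes of the retinoid, receptor, other RA-inducible and Hox lists that had a window, 2 held it, Rarb and Cyp26a1. These are printed below because both genes were higher with RA, as the 100 bases before the start with the matched letters in capitals. The Rarb stretch is chr14:16575477-16575576 on the minus strand, and the Cyp26a1 stretch, whose match reads on the other strand, chr19:37697708-37697807 on the plus strand.
Rarb: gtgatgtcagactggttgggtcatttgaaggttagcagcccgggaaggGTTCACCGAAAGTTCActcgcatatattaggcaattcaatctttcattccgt
Cyp26a1: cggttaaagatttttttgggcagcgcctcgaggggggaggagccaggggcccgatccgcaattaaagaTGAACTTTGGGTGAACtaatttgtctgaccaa
The Rarb match ran from 52 to 37 bases before the start and the Cyp26a1 match from 32 to 17. Over all promoters, 14 of the genes with a match were among the 10645, of which 5 were at least 2-fold higher and 1 at least 2-fold lower. The same repeat with a spacing of 1 base was found in 132 windows and with a spacing of 2 bases in 131, and in none of the 54 list genes. Of 28 genes among the 10645 with a spacing of 1 base, 3 were higher and 11 lower, and of 17 with a spacing of 2 bases 6 were higher and 3 lower, where 22.4% of all the genes were higher and 15.8% lower. No binding was measured, and a match is a run of letters.

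Of 18 genes of retinoid synthesis, binding and degradation, 14 had more CPM in EGFP RA than in EGFP no-LIF and 3 fewer. Of the 11 that reached 5 CPM, 5 were at least 2-fold higher and none 2-fold lower, and 3 of the 11 passed through the RA library alone. Among the degrading enzymes, Cyp26a1 (chr19:37772343-37776018) had 103 CPM in RA and 6.98 in no-LIF (14.8-fold higher, 12.8 to 17.3), beside the larger ratio of Cyp26b1. The no-LIF library thus held Cyp26a1 and a single count of Cyp26b1. Per length, Cyp26a1 was the higher in RA as well, at 67.1 FPKM (the authors' values, scaled by gene length and library total) against 36.4 FPKM for Cyp26b1. Dhrs3, which turns retinaldehyde back into retinol, had 148 CPM in RA and 7.17 in no-LIF (20.6-fold higher, 17.8 to 23.96). Stra6, the cell-surface channel for retinol, had 19.4 CPM in RA and 0.458 in no-LIF (42.4-fold higher, 24.1 to 82.6). Aldh1a1, a retinaldehyde dehydrogenase that makes RA, had 7.43 CPM in RA and 1.11 in no-LIF (6.72-fold higher, 4.56 to 10.2), while Aldh1a2, the main embryonic form, stayed below 5 CPM in both (2.49 in RA and 2.29 in no-LIF). The cytoplasmic RA-binding proteins differed little. Crabp1 had 29.2 CPM in RA and 24.8 in no-LIF, and Crabp2 14.95 in RA and 13.4 in no-LIF.

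Of 12 receptors and coregulators, 11 had more CPM in RA and 1, Rxrb, fewer. Of the 11 that reached 5 CPM, 4 of them through RA alone, 8 were at least 2-fold higher and none 2-fold lower. Rarb (chr14:17263355-17651381) had 73.5 CPM in RA and 0.343 in no-LIF (214-fold higher, 113 to 469). Rara, the broadly expressed receptor, had 43.5 CPM in RA and 11.8 in no-LIF (3.69-fold higher, 3.26 to 4.19), but its level in EGFP LIF was 44.05 CPM, close to that in RA. Rarg had 6.496 CPM in RA and 4.27 in no-LIF, both below its 23.9 CPM in EGFP LIF. Of the partners, Rxra had 10.2 CPM in RA and 3.81 in no-LIF (2.66-fold higher, 2.12 to 3.37). Nrip1, a ligand-dependent corepressor, had 129 CPM in RA and 15.9 in no-LIF (8.12-fold higher, 7.34 to 8.995). The corepressor Ncor1 had 184 CPM in RA and 91.6 in no-LIF. The coactivator Ncoa2 had 65.9 CPM in RA and 16.02 in no-LIF (4.11-fold higher, 3.704 to 4.58). With EGFP LIF in place of no-LIF, 4 of the 11 were 2-fold higher and 1 lower, so that several of these genes were low in the no-LIF library. Of 12 other RA-inducible genes, 8 reached 5 CPM, 7 of them through RA alone, and 7 were 2-fold higher. Nr2f2 and Nr2f1, orphan nuclear receptors of mesenchyme and nervous system, had 44.5 and 7.99 CPM in RA, against 0.458 and 0.343 in no-LIF. Stra8, the meiotic entry factor named for its stimulation by RA, had 12.5 CPM in RA and 0.191 in no-LIF (65.5-fold higher, 27.8 to 203). Tshz1, a zinc finger factor of trunk patterning, had 29.03 CPM in RA and 0.648 in no-LIF (44.8-fold higher, 27.8 to 77.2).

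**Figure D2:**
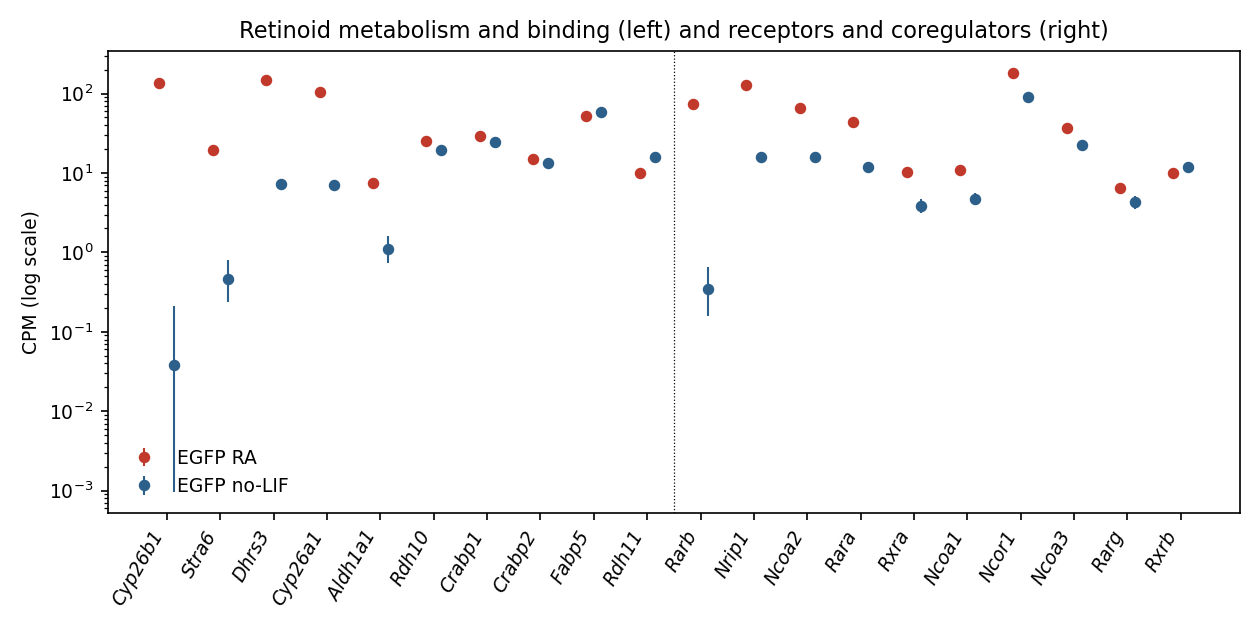
CPM (log scale) of genes of retinoid metabolism and binding (left of the dotted line) and of RA receptors and coregulators (right) among those that reached 5 CPM, in EGFP RA (red) and EGFP no-LIF (blue), with 95% Poisson intervals as bars. Cyp26b1, Stra6 and Rarb are below 1 CPM in no-LIF and above 10 CPM in RA, while Crabp1, Crabp2, Fabp5 and Rdh10 nearly coincide.

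Hox genes encode the homeodomain factors that set position along the body axis, and lie in 4 clusters in which genes of low paralogue number are anterior. Of 39 Hox genes, 38 had more CPM in EGFP RA than in EGFP no-LIF and none had fewer. Hoxd12 had no count in either. In RA 22 reached 5 CPM, 21 of them in RA alone, and all 22 were at least 2-fold higher, as they were with EGFP LIF in place of no-LIF. They came from the Hoxa (8 of 11), Hoxb (6 of 10), Hoxc (6 of 9) and Hoxd (2 of 9) clusters. The summed Hox level was 443 CPM in RA, 23.3 in no-LIF and 28.2 in EGFP LIF. Per length, the ranking in RA was led by Hoxa5 at 80.1 FPKM, against 0.870 FPKM in no-LIF, followed by Hoxb2 (19.9 in RA and 1.18 in no-LIF) and Hoxc8 (19.3 in RA and 0.0300 in no-LIF). Hoxa5 also had the highest count, with 134 CPM in RA and 1.68 in no-LIF (79.98-fold higher, 59.5 to 110.2). The largest ratios belonged to middle genes of the clusters. Hoxc8 had 25.6 CPM in RA and a single count in no-LIF, a ratio of 671 with an interval of 120.0 to 26519.7. Hoxb6 had 12.7 CPM in RA and 0 counts in no-LIF (at least 111-fold higher), and it overlaps Hoxb5os, which had 16.6 CPM in RA and a single count in no-LIF, so that without strand information their reads cannot be told apart. Hoxb9 had 24.1 CPM in RA and 0.610 in no-LIF (39.5-fold higher, 24.1 to 69.4). Hoxb1 stayed below 5 CPM, at 1.399 in RA and 0.534 in no-LIF. In the Hoxc cluster Hoxc4 had 5.75 CPM in RA and 1.45 in no-LIF, a smaller ratio (3.97-fold higher, 2.79 to 5.78) than that of Hoxc5 (14.5 CPM in RA and a single count in no-LIF). Posterior genes were also present, among them Hoxc13 with 12.1 CPM in RA and 0.992 in no-LIF (12.2-fold higher, 8.17 to 18.9) and Hoxd13 with 5.59 in RA and 1.26 in no-LIF (4.44-fold higher, 3.05 to 6.65).

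**Figure D3:**
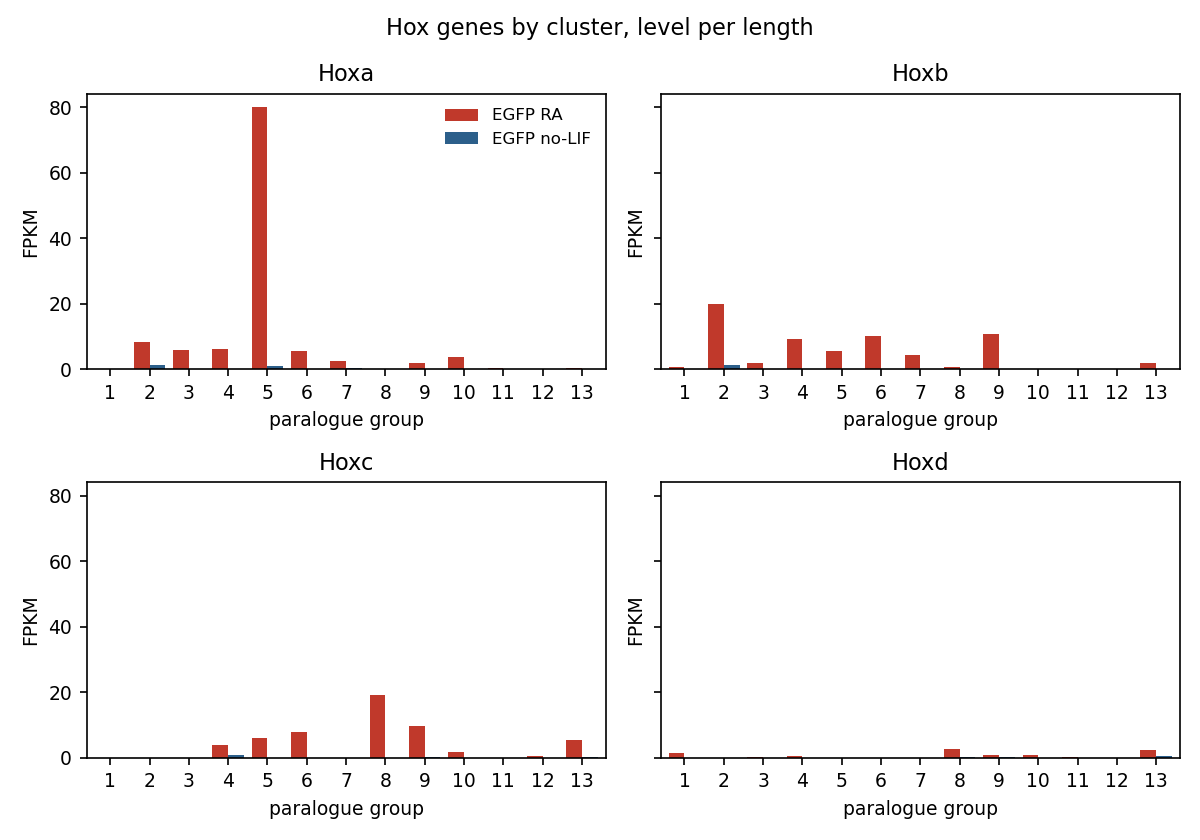
FPKM of the Hox genes shown, by paralogue group (horizontal axis) in the 4 clusters, in EGFP RA (red, left bar) and EGFP no-LIF (blue, right bar), 1 library each. An empty position is a group with no gene in that cluster, a gene near 0 or a gene not drawn. Hoxa5 stands above every other Hox gene at 80.1 FPKM in RA, and was at 0.870 FPKM in no-LIF.

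Of 9 Hox cofactors of the Meis, Pbx and Pknox families, which bind DNA with Hox proteins, 8 had more CPM in RA and 1, Pbx3, fewer. Of the 8 that reached 5 CPM, 2 of them through RA alone, 3 (37.5%) were 2-fold higher, against 22.4% of all genes. Among them Meis1 had 115 CPM in RA and 3.62 in no-LIF (31.8-fold higher, 25.98 to 39.5) and Meis2 219.6 in RA and 24.98 in no-LIF (8.79-fold higher, 8.11 to 9.54). Pbx3 had 13.6 CPM in RA and 26.4 in no-LIF.

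All 17 genes of general pluripotency reached 5 CPM, 13 of them through no-LIF alone. Of the 17, 16 had fewer CPM in RA, and 15 (88.2%) were at least 2-fold lower. The sum over the list was 115.0 CPM in RA, 2721 in no-LIF and 4185 in EGFP LIF. Beside Tdgf1, Pou5f1 and Nanog, the growth factors Gdf3 and Fgf4 had 0.497 and 0.0622 CPM in RA, against 96.7 and 12.7 in no-LIF. Utf1, a chromatin protein of ES cells, had 0.746 CPM in RA and 77.2 in no-LIF (103-fold lower, 69.4 to 162), and Dppa5a, an RNA-binding protein, 2.74 in RA and 241 in no-LIF (87.97-fold lower, 71.3 to 109.8). Lin28a, which blocks let-7 maturation, had 1.77 CPM in RA and 94.9 in no-LIF (53.5-fold lower, 41.2 to 70.9). Sox2, the partner of Oct4, differed less, with 2.704 CPM in RA and 19.8 in no-LIF (7.34-fold lower, 5.84 to 9.31), having been 85.9 in EGFP LIF. Dppa2 and Trim71 were within 2-fold, Dppa2 at 52.2 CPM in RA and 37.00 in no-LIF, Trim71 at 25.6 in RA and 36.3 in no-LIF.

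The 14 naive pluripotency genes, which mark the preimplantation state that LIF sustains, had a sum of 148.8 CPM in RA, 172.1 in no-LIF and 1456 in EGFP LIF. Of these genes 12 had fewer CPM in RA and 2 more, and without Tbx3 the sum was 65.6 CPM in RA, 166.6 in no-LIF and 1433 in EGFP LIF. In this list 8 genes reached 5 CPM, 4 of them through no-LIF alone and 1 through RA alone. Of the 8, 2 (25%) were 2-fold higher in RA and 3 (37.5%) lower, against 22.4% and 15.8% of all genes. Dppa3 (Stella) had 0 counts in RA and 8.201 CPM in no-LIF, Fbxo15 0.932 CPM in RA and 33.1 in no-LIF (35.5-fold lower, 24.7 to 52.95) and Zfp42 (Rex1) 6.19 in RA and 59.2 in no-LIF (9.58-fold lower, 8.26 to 11.2). Tbx3, a T-box factor also expressed in mesoderm and endoderm, went the other way, with 83.2 CPM in RA, 5.49 in no-LIF and 22.1 in EGFP LIF (15.1-fold higher, 12.8 to 18.04 in RA than in no-LIF). Klf4 had 19.2 CPM in RA and 4.73 in no-LIF (4.07-fold higher, 3.35 to 4.97), below its 76.7 CPM in EGFP LIF. Esrrb stayed below 5 CPM in both, at 0.155 in RA and 3.47 in no-LIF, from 115 CPM in EGFP LIF.

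Genes of the formative and primed epiblast, the state that ES cells enter on leaving naive pluripotency, were lower with RA. Of 12 genes 10 had fewer CPM in RA and 2 more. Of the 10 that reached 5 CPM, 5 of them through no-LIF alone, 8 were 2-fold lower. Without that minimum 10 of the 12 were lower and 1 higher. Fgf5, the classical epiblast marker, had 9.200 CPM in RA, 112 in no-LIF and 5.22 in EGFP LIF (12.2-fold lower, 10.8 to 13.8 in RA than in no-LIF). Dnmt3b, a de novo DNA methyltransferase, had 4.94 CPM in RA and 222 in no-LIF (44.97-fold lower, 38.4 to 52.98), and the POU factor Pou3f1 0.342 in RA and 26.7 in no-LIF (78.2-fold lower, 43.4 to 157). Sox4 was the gene on the other side, with 209 CPM in RA and 28.8 in no-LIF (7.26-fold higher, 6.73 to 7.84). Of 14 genes of primitive streak and mesoderm, 4 had more CPM in RA and 10 fewer. Of the 4 that reached 5 CPM, 3 of them through no-LIF alone, 3 were 2-fold lower. Without that minimum 3 of the 14 were higher and 8 lower. Mixl1, a homeodomain factor of the streak, had 1.15 CPM in RA, 18.3 in no-LIF and 1.67 in EGFP LIF. Eomes, a T-box factor of the streak, had 1.71 CPM in RA, 16.02 in no-LIF and 2.81 in EGFP LIF. Both were thus within 2-fold of the LIF culture in RA, and the ratio to no-LIF rests on the high level in that library. Wnt3, which acts upstream of T in the embryo, was within 2-fold (14.9 CPM in RA and 23.4 in no-LIF).

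MicroRNA clusters of ES cells were counted as genes of their hairpin precursors, and all 7 precursors of the miR-290 cluster had fewer CPM in RA. Mir295 had 0 counts in RA and 5.49 CPM in no-LIF, Mir294 0 counts in RA and 3.74 CPM in no-LIF, and Mir293 a single count in RA and 3.01 CPM in no-LIF. All 4 precursors of the miR-302 cluster also had fewer CPM in RA, at levels below 5 CPM. Their sum was 0.0311 CPM in RA, 2.86 in no-LIF and 0.0334 in EGFP LIF, so that the ratio rests on the no-LIF library. That of the miR-290 cluster was 0.0311 CPM in RA, 13.7 in no-LIF and 31.2 in EGFP LIF. The miR-302 precursors lie within Larp7, so that their counts can include its reads, and mature microRNAs were not measured. The mature forms below (RefSeq, GRCm38.p6), chosen because miRNAs of both clusters share the seed AAGUGCU (bases 2 to 8, in capitals), are those of precursors with fewer counts in RA.
miR-291a-3p: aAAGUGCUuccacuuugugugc
miR-294-3p: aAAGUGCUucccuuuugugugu
miR-295-3p: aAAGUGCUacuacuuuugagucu
miR-302b-3p: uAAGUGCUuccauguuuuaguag
miR-302d-3p: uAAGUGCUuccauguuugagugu

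Signalling genes differed in direction by pathway. Of 16 FGF pathway genes, 12 reached 5 CPM, 4 of them through no-LIF alone and 1 through RA alone. Of the 12, 7 (58.3%) were 2-fold lower and 2 (16.7%) higher, against 15.8% and 22.4% of all genes. The ligands Fgf8, Fgf17 and Fgf15 had 0 counts in RA, Fgf15 with 7.25 CPM in no-LIF. Etv5, an ETS factor induced by FGF, had 10.8 CPM in RA and 116 in no-LIF (10.8-fold lower, 9.66 to 12.1), and the feedback inhibitor Spry2 6.19 in RA and 28.1 in no-LIF (4.55-fold lower, 3.88 to 5.34). The receptor Fgfr2 had 72.8 CPM in RA and 4.54 in no-LIF (16.03-fold higher, 13.3 to 19.4), and Spry1 31.5 in RA and 6.48 in no-LIF (4.86-fold higher, 4.12 to 5.75), while Dusp6, a phosphatase that dampens ERK, had 21.7 CPM in RA and 22.01 in no-LIF. Of 10 Nodal pathway genes, 8 reached 5 CPM, 4 of them through no-LIF alone, and 5 (62.5%) were 2-fold lower and 1 (12.5%) higher. The ligand Nodal had 0.839 CPM in RA and 60.9 in no-LIF (72.5-fold lower, 49.7 to 110.4), its antagonist Lefty1 0.932 in RA and 88.2 in no-LIF (94.6-fold lower, 66.1 to 141), and the DNA-binding partner Foxh1 0.311 in RA and 10.8 in no-LIF (34.9-fold lower, 18.7 to 73.5). The receptor genes Acvr1b and Acvr2a stayed within 2-fold, Acvr2a at 52.9 CPM in RA and 29.4 in no-LIF. The inhibitor Smad7 was the higher gene, with 86.4 CPM in RA and 25.9 in no-LIF (3.33-fold higher, 3.06 to 3.63).

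Of 13 BMP pathway genes, 11 had more CPM in RA and 9 reached 5 CPM, 2 of them through RA alone. Of the 9, 7 (77.8%) were 2-fold higher and none lower, against 22.4% and 15.8% of all genes. The ligands Bmp4 and Bmp7 had 26.1 and 9.98 CPM in RA, against 8.62 and 1.83 in no-LIF. The response genes Id1 and Id3, inhibitors of basic helix-loop-helix factors, had 180.3 and 278 CPM in RA, against 56.5 and 37.7 in no-LIF, and Msx2, a homeodomain target, 93.5 in RA and 15.2 in no-LIF (6.14-fold higher, 5.53 to 6.84). The inhibitory Smad6 had 15.7 CPM in RA and 0.839 in no-LIF (18.7-fold higher, 12.2 to 30.1). Bmp2 stayed within 2-fold, at 6.53 CPM in RA and 8.85 in no-LIF.

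Of 18 Wnt pathway genes, 14 reached 5 CPM, 3 of them through RA alone and 5 through no-LIF alone. Of the 14, 5 (35.7%) were 2-fold higher and 6 (42.9%) lower, against 22.4% and 15.8% of all genes. The noncanonical ligands Wnt11 and Wnt5a had 11.9 and 28.4 CPM in RA, against 0.343 and 2.098 in no-LIF, and the receptors Fzd7 and Fzd1 213 and 36.8 in RA, against 23.8 and 2.06 in no-LIF. The secreted inhibitor Sfrp1 had 141 CPM in RA and 16.1 in no-LIF (8.79-fold higher, 7.95 to 9.74). Wnt8a and the target Sp5, both expressed in the streak, had 0.0932 and 0.622 CPM in RA, against 14.8 and 26.7 in no-LIF and 1.44 and 6.12 in EGFP LIF. Axin2, the general target of canonical Wnt signalling, stayed within 2-fold at 13.1 CPM in RA and 16.3 in no-LIF. Of 14 Notch and hedgehog pathway genes, 9 reached 5 CPM, 2 of them through RA alone, and 6 (66.7%) were 2-fold higher, none lower. The receptors Notch1 and Notch2 had 22.4 and 28.1 CPM in RA, against 3.01 and 6.87 in no-LIF, and the hedgehog effector Gli3 120.1 in RA and 35.4 in no-LIF (3.39-fold higher, 3.15 to 3.64). Of 11 LIF and STAT3 pathway genes 8 reached 5 CPM, 2 of them through RA alone. Of the 8, 6 (75%) were 2-fold higher, although neither culture held LIF. The receptor Lifr had 37.05 CPM in RA, 5.53 in no-LIF and 36.2 in EGFP LIF (6.699-fold higher, 5.63 to 8.01 in RA than in no-LIF), and the transducer Stat3 109 in RA, 17.7 in no-LIF and 46.4 in EGFP LIF. Socs3, the feedback inhibitor induced by STAT3, had 4.54 CPM in RA and 4.08 in no-LIF, both below its 17.96 CPM in EGFP LIF.

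**Figure D4:**
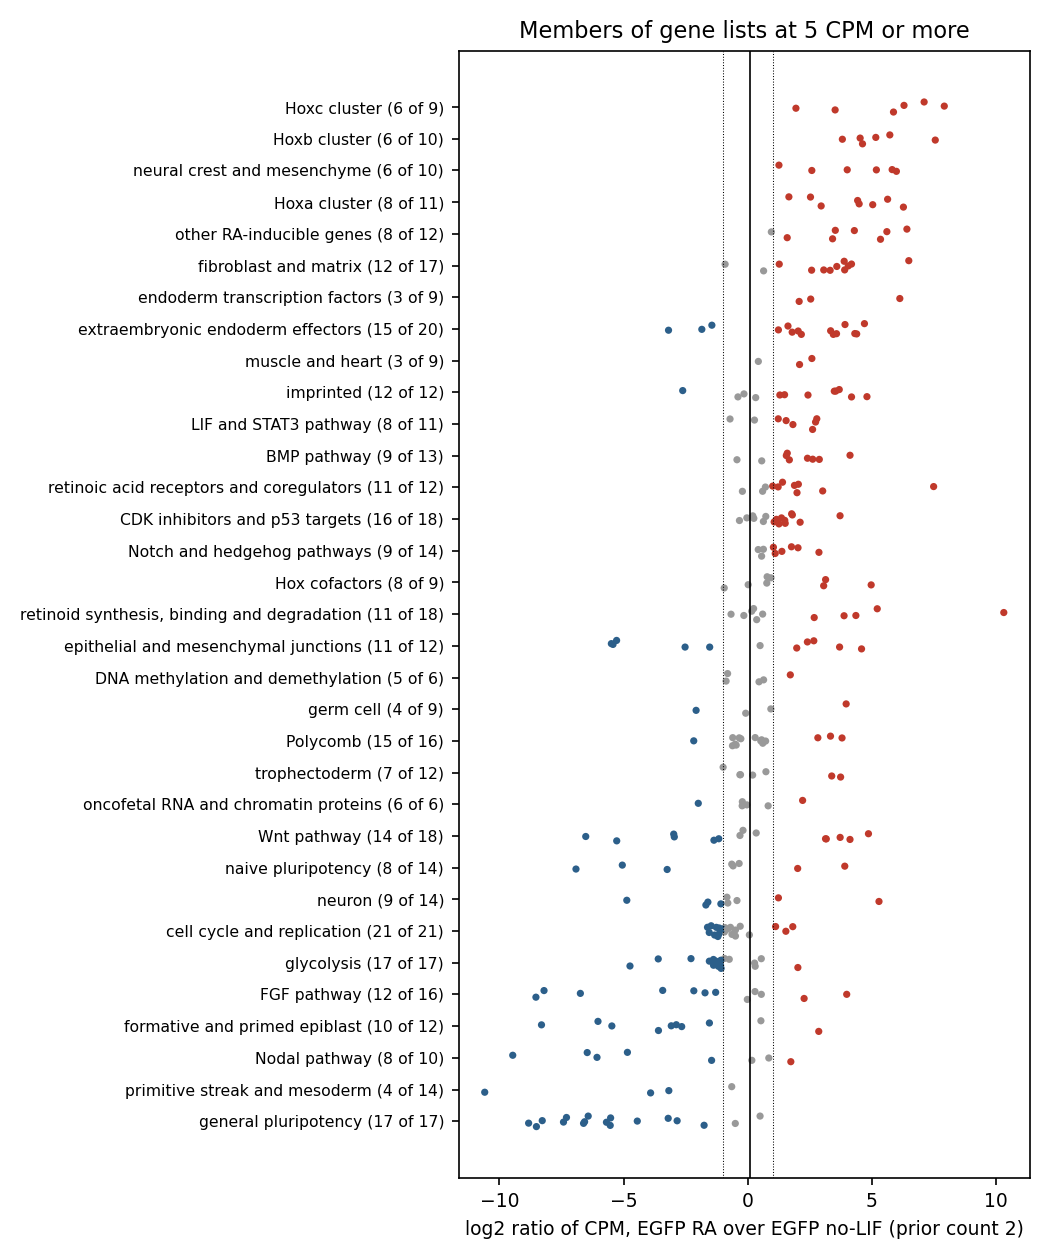
Log2 ratio of CPM in EGFP RA over EGFP no-LIF (horizontal axis, prior count 2) for the genes of each list shown that reached 5 CPM in either library, ordered by list median, 1 point a gene. The Hoxd, neural progenitor, endothelium and blood lists, with too few such genes, and the lists added later are not drawn. Points are red at 2-fold higher or more, blue at 2-fold lower or more and grey between. Brackets give how many of the listed genes reached 5 CPM, the solid line is the median of all 10645 genes, 0.07, and the dotted lines mark 2-fold. Hox, neural crest and RA-inducible lists lie at the top and general pluripotency at the bottom. Genes that passed through 1 library alone had to be higher in that library, though not necessarily by 2-fold.

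Markers of several differentiated cell types were present in the RA library, and their part in the other results was not tested. Of 17 fibroblast and matrix genes 13 had more CPM in RA and 4 fewer. Of the 12 that reached 5 CPM, 4 of them through RA alone, 10 were 2-fold higher and none lower, and without that minimum 11 of the 17 were higher and 2 lower. Their sum was 6077 CPM in RA, 1140 in no-LIF and 415.6 in EGFP LIF. Most of it in RA and in no-LIF was of the smooth muscle genes Acta2 and Tagln, which are also in the contractile list below. Col3a1 and Col1a1, fibrillar collagens, had 139 and 172 CPM in RA, against 1.49 and 14.3 in no-LIF. Fn1 (fibronectin) had 808 CPM in RA and 136 in no-LIF (5.94-fold higher, 5.74 to 6.15), and Fbn1 (fibrillin) 65.9 in RA and 3.93 in no-LIF (16.8-fold higher, 13.8 to 20.7). The fibroblast surface marker Thy1 stayed low, at 1.96 CPM in RA and 2.25 in no-LIF. Of all 43 collagen genes, a list added after values were seen, 31 had more CPM in RA. In this list 15 reached 5 CPM, 5 of them through RA alone and 1 through no-LIF alone, and 13 were 2-fold higher and 1 lower. Of 10 neural crest and mesenchyme genes 7 had more CPM in RA and 3 fewer. The 6 that reached 5 CPM, 4 of them through RA alone, were higher, and without that minimum 6 were higher and 1 lower. Snai2 (Slug) had 52.5 CPM in RA and 0.763 in no-LIF (68.8-fold higher, 44.4 to 113), Sox9, a factor of crest and cartilage, 65.9 in RA and 1.11 in no-LIF (59.6-fold higher, 41.4 to 89.2), and Ets1 344 in RA and 21.4 in no-LIF (16.1-fold higher, 14.8 to 17.5). Other genes named after their values were seen were Pmp22, a myelin and growth-arrest protein, with 1709.7 CPM in RA and 84.00 in no-LIF, and Tnc (tenascin C), with 316 in RA and 7.67 in no-LIF.

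All 15 genes of a contractile list, also added after values were seen, reached 5 CPM, 5 of them through RA alone. Of the 15, 12 (80%) were 2-fold higher, against 22.4% of all genes. With EGFP LIF in place of no-LIF 14 were. Acta2 had 3602 CPM in RA, 244 in no-LIF and 120.1 in EGFP LIF (14.7-fold higher, 14.4 to 15.1 in RA than in no-LIF), and had the largest gain in CPM once ribosomal RNA and gene models were left out. Myh11, smooth muscle myosin, had 22.4 CPM in RA, 0.420 in no-LIF and 0.569 in EGFP LIF (53.5-fold higher, 29.7 to 108 in RA than in no-LIF), and Actg2 75.6 in RA, 1.83 in no-LIF and 1.17 in EGFP LIF (41.3-fold higher, 31.03 to 56.1 in RA than in no-LIF). Tagln (SM22) and Tpm1 were within 2-fold, Tagln at 1097 CPM in RA, 706 in no-LIF and 111 in EGFP LIF, and Tpm1 at 4077 in RA, 2212 in no-LIF and 429 in EGFP LIF. Both were more than 2-fold higher in no-LIF than in EGFP LIF. Of 9 muscle and heart genes 3 reached 5 CPM, and Des (desmin) had 28.6 CPM in RA, 4.73 in no-LIF and 4.41 in EGFP LIF (6.05-fold higher, 5.01 to 7.36 in RA than in no-LIF).

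Of 9 endoderm transcription factors 3 reached 5 CPM, through RA alone, and all 3 were higher. Gata6 had 33.9 CPM in RA and 0.420 in no-LIF (80.7-fold higher, 44.9 to 162), Hhex 24.6 in RA and 4.196 in no-LIF (5.87-fold higher, 4.801 to 7.23) and Gata4 5.66 in RA and 1.297 in no-LIF (4.36-fold higher, 3.01 to 6.49). Sox17 and Foxa2 stayed below 5 CPM, Foxa2 at 1.24 in RA and 2.21 in no-LIF. Of 20 extraembryonic endoderm effectors 15 reached 5 CPM, 5 of them through RA alone, and 12 were 2-fold higher and 3 lower. Without that minimum 13 of the 20 were higher and 6 lower. The basement membrane genes Col4a1, Lama1 and Nid1 had 296, 20.5 and 423 CPM in RA, against 27.1, 1.297 and 20.2 in no-LIF. Lama1 was 24.05 CPM in EGFP LIF. Plat, a plasminogen activator of parietal endoderm, had 128 CPM in RA and 4.88 in no-LIF (26.3-fold higher, 22.03 to 31.6). Apoe, a lipid carrier, had 5.22 CPM in RA and 48.2 in no-LIF (9.23-fold lower, 7.85 to 10.9), Fst, which binds activin, 28.7 in RA and 104 in no-LIF (3.61-fold lower, 3.35 to 3.89), and Lrp2 (megalin, an endocytic receptor) 45.9 in RA and 125 in no-LIF (2.73-fold lower, 2.56 to 2.900). Of 12 trophectoderm genes 4 had more CPM in RA and 8 fewer. Of the 7 that reached 5 CPM, 2 (28.6%) were higher, near the 22.4% of all genes. These were Gata2 and Gata3, Gata3 with 43.9 CPM in RA and 4.16 in no-LIF (10.6-fold higher, 8.68 to 12.9). The keratins Krt8 and Krt18 were within 2-fold, Krt8 at 175 CPM in RA, 218 in no-LIF and 45.6 in EGFP LIF.

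Of 16 neural progenitor genes 9 had more CPM in RA and 2 fewer, while 6 were at 0 in RA and 5 in no-LIF. Their sum was 202 CPM in RA, 81.0 in no-LIF and 37.6 in EGFP LIF, and 2 reached 5 CPM. Most of that sum in RA and in no-LIF was Nes (nestin, an intermediate filament also made by mesenchyme). Nes had 186 CPM in RA and 75.5 in no-LIF (2.46-fold higher, 2.34 to 2.59), and Pax6 6.25 in RA and 3.47 in no-LIF. Of 14 neuron genes 4 had more CPM in RA and 10 fewer. Of these, 9 reached 5 CPM. Of the 9, 2 (22.2%) were higher and 4 (44.4%) lower, where 22.4% of all genes were higher and 15.8% lower. The sum over the list was 111.4 CPM in RA, 568.8 in no-LIF and 604.4 in EGFP LIF. Most of that difference was Stmn2, a microtubule regulator, with 12.9 CPM in RA, 378 in no-LIF and 463 in EGFP LIF. Dcx, doublecortin of migrating neurons, had 5.56 CPM in RA and 0.0763, or 2 counts, in no-LIF, a ratio of 72.9 with an interval of 19.9 to 607. Tubb3, a neuronal tubulin, had 14.98 CPM in RA and 6.33 in no-LIF (2.37-fold higher, 1.98 to 2.84), but 20.8 CPM in EGFP LIF. The listed span of Usp10 covers Tubb3 too. The blood list held 1 gene at 5 CPM, Runx1, with 28.7 CPM in RA and 3.97 in no-LIF (7.23-fold higher, 5.899 to 8.94), and 5 of its 7 genes were at 0 in RA and 4 in no-LIF. Of 6 endothelial genes 2 reached 5 CPM, the receptor Kdr with 6.37 CPM in RA and 2.14 in no-LIF and Flt1 with 5.72 in RA and 23.5 in no-LIF.

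Cell junction genes divided by epithelial and mesenchymal role. Of 12 genes 11 reached 5 CPM, and 5 (45.5%) were higher and 5 (45.5%) lower, against 22.4% and 15.8% of all genes. On the epithelial side, Epcam had 5.81 CPM in RA and 252 in no-LIF (43.4-fold lower, 37.6 to 50.5), Cldn7 1.99 in RA and 79.9 in no-LIF (40.2-fold lower, 31.3 to 52.4), the splicing factor Esrp1 0.715 in RA and 35.2 in no-LIF (49.2-fold lower, 32.6 to 78.00), and E-cadherin (Cdh1) 124 in RA, 714 in no-LIF and 328 in EGFP LIF. On the mesenchymal side, Cdh11 had 162 CPM in RA and 6.71 in no-LIF (24.1-fold higher, 20.8 to 28.2), N-cadherin (Cdh2) 179 in RA and 33.9 in no-LIF (5.29-fold higher, 4.93 to 5.68), and the repressors of E-cadherin Zeb1 and Zeb2 31.95 and 96.4 in RA, against 2.403 and 15.2 in no-LIF. Vim (vimentin) had 1748 CPM in RA and 446 in no-LIF (3.92-fold higher, 3.84 to 3.999). Snai1 stayed below 5 CPM, at 2.704 in RA and 0.534 in no-LIF. Cav1, the caveolar coat protein named after its values were seen, had 58.8 CPM in RA and 6.87 in no-LIF.

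All 12 imprinted genes, which are expressed from the allele of 1 parent, reached 5 CPM. Of these 8 (66.7%) were 2-fold higher and 1 (8.33%) lower, against 22.4% and 15.8% of all genes. H19 and Igf2, neighbours on chromosome 7 imprinted on opposite alleles, had 958 and 639 CPM in RA, against 52.9 and 57.1 in no-LIF. Peg3, a zinc finger protein, had 3314 CPM in RA, 258 in no-LIF and 80.97 in EGFP LIF (12.8-fold higher, 12.5 to 13.2 in RA than in no-LIF). Dlk1, a Notch-like membrane protein, had 45.3 CPM in RA and 1.56 in no-LIF (28.98-fold higher, 21.3 to 40.6), and Plagl1, a zinc finger factor, 144 in RA and 12.3 in no-LIF (11.7-fold higher, 10.5 to 13.2). Phlda2, an imprinted growth regulator of placenta, was the lower gene, with 3.89 CPM in RA and 24.2 in no-LIF (6.23-fold lower, 5.14 to 7.61). Of 16 Polycomb genes, 3 (20%) were higher and 1 (6.67%) lower among 15 at 5 CPM, shares no larger than those of all genes, and with EGFP LIF in place of no-LIF 3 were higher and 5 lower. Among them the repressive complex genes Cbx8 and Bmi1 had 5.22 and 27.6 CPM in RA, against 0.458 and 3.85 in no-LIF, and Phc1 41.6 in RA and 188 in no-LIF (4.52-fold lower, 4.26 to 4.81). The core methyltransferase subunits Ezh2, Eed and Suz12 stayed within 2-fold. Of 6 DNA methylation and demethylation genes, 5 reached 5 CPM and 1 (20%) was higher, near the 22.4% of all genes. It was Tet2, which oxidises methylcytosine, with 58.2 CPM in RA, 17.7 in no-LIF and 173 in EGFP LIF. Of 6 oncofetal genes, 1 (16.7%) was higher and 1 (16.7%) lower, near the shares of all genes. Hmga2 had 118 CPM in RA and 25.4 in no-LIF (4.63-fold higher, 4.26 to 5.03), while Hmga1 had 10.8 in RA and 43.4 in no-LIF (3.998-fold lower, 3.54 to 4.52). Of 9 germ cell genes 4 reached 5 CPM, of which 1 (25%) was higher and 1 (25%) lower. Rec8, a meiotic cohesin, had 68.7 CPM in RA and 4.35 in no-LIF (15.8-fold higher, 13.1 to 19.2), while Sycp3, of the synaptonemal complex, had 2.74 in RA and 11.8 in no-LIF (4.31-fold lower, 3.39 to 5.53).

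Among genes of proliferation more were lower than higher in RA. All 21 cell cycle and replication genes reached 5 CPM in both libraries. Of the 21, 9 (42.9%) were 2-fold lower and 3 (14.3%) higher, against 15.8% and 22.4% of all genes. With scaling by total counts 6 were lower and 3 higher. Mcm5, a subunit of the replicative helicase, had 50.5 CPM in RA and 155 in no-LIF (3.08-fold lower, 2.91 to 3.26), Pcna, the sliding clamp, 180.2 in RA and 528 in no-LIF (2.93-fold lower, 2.84 to 3.02), and cyclin B1 (Ccnb1) 162 in RA and 449 in no-LIF (2.78-fold lower, 2.69 to 2.87). Mki67, the proliferation antigen, had 121.7 CPM in RA and 116.3 in no-LIF. The 3 higher genes act in G1. Cdk6 had 53.1 CPM in RA and 15.1 in no-LIF (3.52-fold higher, 3.15 to 3.94), cyclin D2 (Ccnd2) 15.9 in RA and 5.45 in no-LIF (2.92-fold higher, 2.42 to 3.54), and cyclin D3 (Ccnd3) 53.6 in RA and 24.6 in no-LIF (2.18-fold higher, 1.99 to 2.39). Cyclin D1 (Ccnd1) lay on the other side, with 29.3 in RA and 74.04 in no-LIF (2.53-fold lower, 2.34 to 2.73). Of 18 CDK inhibitors and p53 targets, 16 had more CPM in RA. Of the 16 that reached 5 CPM, 2 of them through RA alone, 10 (62.5%) were 2-fold higher and none lower. Cdkn2b (p15) had 62.9 CPM in RA and 4.73 in no-LIF (13.3-fold higher, 11.1 to 16.1), Cdkn1a (p21) 275 in RA and 63.8 in no-LIF (4.31-fold higher, 4.09 to 4.55), and Mdm2, which degrades p53, 1557 in RA and 449 in no-LIF (3.47-fold higher, 3.398 to 3.54). Ccng1 had 2931 CPM in RA and 1031 in no-LIF (2.84-fold higher, 2.804 to 2.88). The p53 target Bax, which promotes apoptosis, had 101 CPM in RA and 127 in no-LIF.

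All 17 glycolysis genes reached 5 CPM. Of the 17, 11 (64.7%) were 2-fold lower and 1 (5.88%) higher, against 15.8% and 22.4% of all genes. With scaling by total counts 7 were lower and 1 higher. The glucose transporter Slc2a3 had 45.1 CPM in RA and 1209 in no-LIF (26.8-fold lower, 25.4 to 28.3), the lactate exporter Slc16a3 5.47 in RA and 67.3 in no-LIF (12.3-fold lower, 10.5 to 14.4), and lactate dehydrogenase Ldha 213 in RA and 1038 in no-LIF (4.88-fold lower, 4.75 to 5.01). Hk1, a hexokinase, was the higher gene, with 12.1 CPM in RA and 2.94 in no-LIF (4.12-fold higher, 3.22 to 5.33), and Hk2 was within 2-fold. Of 83 ribosomal protein genes, a list added after values were seen, 82 had fewer CPM in RA. Of the 80 that reached 5 CPM 65 were at least 2-fold lower, and 44 with scaling by total counts. Their share of all counts was 6.91% in RA and 14.2% in no-LIF. Replication-dependent histone genes, also added later, numbered 63, of which 55 had fewer CPM in RA and 6 more. Of the 23 that reached 5 CPM, 12 of them through no-LIF alone, 21 were 2-fold lower and 1 higher. Without that minimum 46 were lower and 2 higher. Of 36 mitochondrially encoded genes, added later, 35 had more CPM in RA, and 14 of the 18 that reached 5 CPM were 2-fold higher. With EGFP LIF in place of no-LIF 2 of these 18 were, so that the count rests on a low level in the no-LIF library.

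The largest losses in CPM were of abundant genes of translation. They were Npm1 (nucleophosmin, 2264 CPM in RA and 7899.8 in no-LIF), Eef1a1 (the elongation factor, 5028 in RA and 10003 in no-LIF), Rps24 (1951 in RA and 5749 in no-LIF), Rack1 (2436 in RA and 6191 in no-LIF), Rpl9 (1977 in RA and 5396 in no-LIF) and Lars2, a mitochondrial leucyl-tRNA synthetase (4118 in RA and 8677 in no-LIF). The Lars2 values lay close to those of Gm23935, a short gene model on chromosome 16 with 4110.4 CPM in RA and 8556 in no-LIF. Whether such genes share ribosomal RNA reads was not tested. A small-subunit ribosomal RNA model (SSU_rRNA_5) held 4.72% of counts in RA and 9.38% in no-LIF. The largest gains were of cytoskeletal, matrix and growth-arrest genes. Beside Acta2, Peg3, Ccng1 and Tpm1 they were Sparc (osteonectin, 3134 CPM in RA and 1021 in no-LIF) and Tmsb4x (thymosin beta, which binds actin monomers, 2854 in RA and 1220.4 in no-LIF).

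The same comparison of RA with no-LIF in the Nanog transfectants has libraries of its own. Of the 2381 genes higher with RA in EGFP cells, 1453 were at least 2-fold higher in WT cells, which is 61.0% of the EGFP list and 65.0% of the 2237 genes of WT. With L122A cells 1341 were shared, 56.3% of the EGFP list and 56.1% of the 2391 of L122A. Over all 10645 genes the shares higher were 19.6% in WT and 21.0% in L122A. Of the 1685 lower genes 1080 were lower in WT (64.1% of the EGFP list, 57.4% of the 1881 of WT) and 978 in L122A (58.0% of the EGFP list, 44.7% of the 2190 of L122A), where 15.0% and 17.6% of all genes were lower. In all, 35 genes were at least 2-fold apart in the opposite direction in both Nanog transfectants, 9 of those higher and 26 of those lower in EGFP cells. That count set no CPM minimum in WT or L122A, unlike the shared counts. With the minimum, 17 (0.714%) of the genes higher in EGFP cells were lower in WT and 18 (0.756%) in L122A. Of the genes lower in EGFP cells, 29 (1.72%) were higher in WT and 51 (3.03%) in L122A.

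Whether the response of a gene differed between EGFP and the Nanog transfectants was tested in edgeR's quasi-likelihood model, with WT and L122A as the libraries of 1 class and 3 residual degrees of freedom. Of 13996 genes 6 (0.0429%) passed an adjusted p of 0.05, of which 1 (0.00714%) had a higher and 5 (0.0357%) a lower response in EGFP cells, and 1291 had an unadjusted p below 0.05. The p-values measure the spread between WT and L122A, which carry different constructs, and hold no spread of EGFP cultures, of which there was 1 each. With each transfectant as a block (a fit added after seeing the data, with 2 residual degrees of freedom) 20 genes had a higher and 44 a lower response. On simulated data of this design the test recovered 0% of 2-fold, 8% of 4-fold, 66% of 8-fold and 92% of 16-fold differences. There were 3 false calls in all. The simulation gave every gene the same biological coefficient of variation, 0.287, and altered only well-counted genes, in EGFP RA alone. In that setting 2-fold differences were not detectable. Recovery at low counts, or with a spread that differs by gene, was not simulated. Of 14 other settings, Nanog passed in 14, Nt5e in 13, Crabp2 in 9, Mpped2 in 8, Tubb3 in 7 and Zfp703 in 6.

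Nanog differed most. Its log2 ratio of RA over no-LIF was -8.27 in EGFP cells, 0.21 in WT cells and 0.99 in L122A cells. The difference of EGFP from the Nanog class was -8.98 (SE 0.50, adjusted p = 4.21e-04). The counts in WT and L122A can include reads from the construct, which carries the gene. Nt5e, a cell-surface nucleotidase (chr9:88222470-88266924), had 2.92 CPM in EGFP RA and 64.6 in EGFP no-LIF, while it had 9.22 in WT RA against 1.51 in WT no-LIF and 6.84 in L122A RA against 1.52 in L122A no-LIF. Its difference was -6.87 (SE 0.63, adjusted p = 0.0146). EGFP LIF had 10.8 CPM, below the EGFP no-LIF value and above the EGFP RA value. The size of the difference thus rests in part on the high EGFP no-LIF value. Crabp2 (chr3:87752614-87757294), the RA-binding protein that differed little in EGFP cells, had 108 CPM in WT RA against 3.71 in WT no-LIF and 91.3 in L122A RA against 2.23 in L122A no-LIF (difference -4.90, SE 0.51, adjusted p = 0.0285). Mpped2, a metallophosphoesterase (chr2:106533425-106708513), showed the same pattern, with 12.4 CPM in EGFP RA against 8.85 in EGFP no-LIF, 111 in WT RA against 5.39 in WT no-LIF, and 144 in L122A RA against 7.44 in L122A no-LIF (difference -3.82, SE 0.46, adjusted p = 0.0472). Zfp703, a zinc finger repressor (chr8:28087807-28091933), was higher with RA in all transfectants, with 33.6 CPM in EGFP RA, 54.4 in WT RA and 57.1 in L122A RA. Its difference of -6.14 (SE 0.75, adjusted p = 0.0472) comes from the no-LIF libraries, with 3.09 CPM in EGFP, a single count in WT and 2 counts in L122A, and was -1.73 when limma was run on FPKM values on the log2 scale. Tubb3 (chr8:125935323-125945915) had 14.98 CPM in EGFP RA against 6.33 in EGFP no-LIF, 2.38 in WT RA against 16.7 in WT no-LIF, and 3.03 in L122A RA against 19.5 in L122A no-LIF, a difference of 3.98 (SE 0.49, adjusted p = 0.0472).

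Other retinoid genes whose ratios differed in size between transfectants did not pass this test. Cyp26a1 had 498 CPM in WT RA against 1.18 in WT no-LIF and 481 in L122A RA against 0.253 in L122A no-LIF, a larger log2 ratio (8.63 in WT and 10.53 in L122A) than the 3.88 of EGFP cells (difference -5.46, adjusted p = 0.148, and 0.0214 with the transfectant block). Cyp26b1 went the other way, with 10.31 in EGFP, 8.61 in WT and 6.07 in L122A (difference 4.04, adjusted p = 0.582). Pou5f1, at 0.466 CPM in EGFP RA, had 9.22 in WT RA and 70.03 in L122A RA, and its difference was -5.58 (adjusted p = 0.403). Slc2a3 had a difference of -3.60 (adjusted p = 0.0582, and 0.0187 with the block). T was not in this test, since it reached 1 CPM in fewer than 3 libraries.

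**Figure D5:**
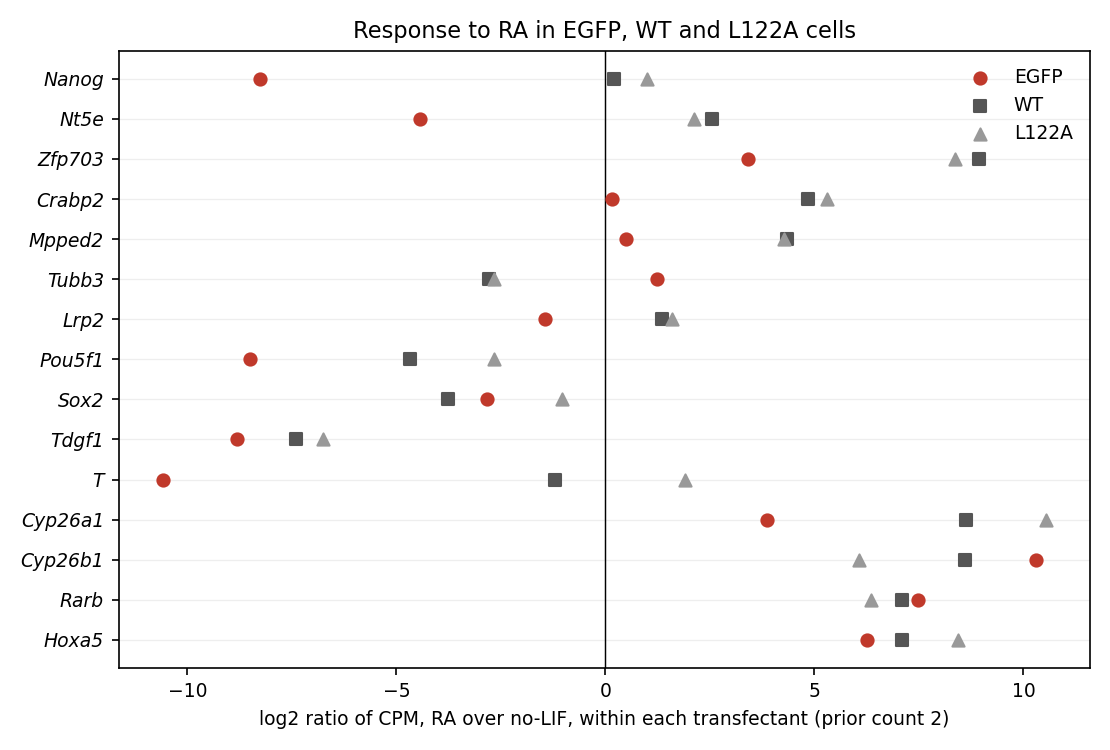
Log2 ratio of CPM, RA over no-LIF (horizontal axis, prior count 2), within EGFP (red circles), WT (dark squares) and L122A (grey triangles) cells, 1 library a culture, for genes named in the text. Nanog, Nt5e and Lrp2 lie below 0 in EGFP and above 0 in both Nanog transfectants, and Tubb3 the reverse. Rarb and Hoxa5 are above 6 in every transfectant.

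Without replicate cultures the spread of these ratios between repeats of the EGFP experiment is unknown. The interval of a ratio is the least error it can have.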

How the data were processed

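RNA sequencing of 9 libraries was read from 1 table of the whole series. The submitters' processing notes name TopHat2 2.0.11 and the build mm9. How reads were counted, filtered and treated by strand is not given in the sources used here. Per the file headers, the authors deposited raw counts per gene, without normalization, and FPKM. Above 5 FPKM 100% of genes in every library matched, within 1%, the count over length and total. Columns for the RA and no-LIF cultures carry the names of the labels. The columns taken as EGFP LIF, WT LIF and L122A LIF are named undet, and elimination alone put them there. Symbols came from a newer mouse annotation for 28692 of 33495 identifiers and from the file for the rest.

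Counts became CPM with TMM factors (1.12 for EGFP RA, 0.974 for EGFP no-LIF) from edgeR 4.0.16 (R 4.3.3) on the 13996 genes that reached 1 CPM in 3 or more libraries. Log2 ratios used a prior count of 2 scaled to library size. Ratio intervals are exact Poisson intervals at 95%. They hold counting error alone, and reads without molecular identifiers are not independent molecules. A count of 0 was set to a floor of 3 counts for a bound on a ratio, which is 0.0932 CPM in EGFP RA and 0.114 CPM in EGFP no-LIF. The difference of responses was tested with glmQLFit (robust) and glmQLFTest on all 9 libraries (biological coefficient of variation 0.287), with Benjamini-Hochberg adjustment, and was tested on simulated data. Labels do not say that libraries come from separate cultures of 1 group, so p-values measure the spread between transfectants. A further fit took each transfectant as a block, since its cultures share a transfectant per the labels. Alternatives used limma 3.58.1 and DESeq2 1.42.0. Tables were made in Python 3.11.15 (pandas 2.3.3, numpy 2.4.6), intervals with scipy 1.17.1 and figures with matplotlib 3.10.9.

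The genes and the 37 lists (472 genes, 466 matched) were chosen with earlier results of these data known, and lists described as added later were chosen after these values were seen. Named are Nanog, the 12 largest increases and decreases on the log2 scale, the 6 largest gains and losses in CPM (gene models and ribosomal RNA left out), list members at least 2-fold apart, the largest 4 each way first, defining members that were not, and the called differences. Some list members are included in the counts but are not reported here by name.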

Additional observations from a re-analysis of the deposited data

Results flagged for a closer look

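For 6 genes the response to RA in EGFP cells was set apart from that in the Nanog transfectants by edgeR's quasi-likelihood test over all genes, which has 1 EGFP library a culture and takes its spread from WT and L122A. The difference of the log2 response was that of EGFP minus that of the Nanog class, fitted from WT and L122A together. It was -8.98 for Nanog, -6.87 for Nt5e, -6.14 for Zfp703, -4.90 for Crabp2, -3.82 for Mpped2 and 3.98 for Tubb3. Nanog counts in WT and L122A can include reads from the construct, which EGFP cells lack. Of 14 other settings the call was lost in 8 for Zfp703, 7 for Tubb3, 6 for Mpped2, 5 for Crabp2, 1 for Nt5e and 0 for Nanog. Lrp2, the endocytic receptor megalin, went in opposite directions, with a log2 ratio of -1.45 in EGFP cells, 1.35 in WT and 1.60 in L122A. It was picked for those opposite directions, and its difference of -2.88 did not pass the same test (adjusted p = 0.335, and 0.0605 with each transfectant as a block).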

How the results depend on the processing

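The counts of 2381 higher and 1685 lower genes stayed within 1.5 times under RLE factors, total counts, a minimum of 1 CPM, a prior count of 0.5, the removal of ribosomal RNA and mitochondrial genes, intervals wholly beyond 2-fold, and EGFP LIF in place of no-LIF (chosen after seeing the data). With no minimum they were 5050 and 4131, and on FPKM with a pseudocount of 1 the lower genes numbered 1010 (2156 higher). Tubb3 changed sign against EGFP LIF, with a log2 ratio of -0.47.

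The test of the difference of responses (1 higher, 5 lower) gave 0 higher and 3 lower genes with RLE factors, 0 and 2 with total counts, 0 and 2 with the no-LIF and RA libraries alone, 233 and 401 with no filter on low counts, 92 and 159 with DESeq2, and 17 and 34 with limma on log2 FPKM. Leaving out a library gave 0 to 20 higher and 1 to 65 lower genes, the most without WT RA (19 and 65) or L122A RA (20 and 43), 3 and 15 without WT no-LIF, 0 and 2 without WT LIF or L122A LIF, 0 and 1 without L122A no-LIF and 0 and 5 without EGFP LIF. The cause was not tested. The remaining library of a class without WT or L122A is assumed to vary like the other classes. Over 14 settings the adjusted p ranged from 2.21e-65 to 0.00741 for Nanog and reached 0.0654 for Nt5e, 0.106 for Crabp2, 0.163 for Mpped2, 0.201 for Tubb3 and 0.117 for Zfp703. The labels carry no replicate number, but cultures pair by transfectant: with the transfectant as a replicate block (chosen after seeing the data) 20 higher and 44 lower genes passed, all 6 named above among them. Depth limits genes near 0.0932 CPM in EGFP RA and 0.114 CPM in EGFP no-LIF, the floor of 3 counts.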
